A study of Homo sapiens with 4 samples.

Results

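The 10 genes described here encode the chaperonins of human cells: the 8 subunits of the cytosolic CCT ring (TCP1, CCT2, CCT3, CCT4, CCT5, CCT6A, CCT7 and CCT8) and the mitochondrial pair HSP60 (HSPD1) and HSP10 (HSPE1). They were chosen by symbol, and all 10 were found among the 16376 genes of the deposited table. Poly(A)-selected RNA was sequenced from HCT116, an established human colon cancer cell line, in 2 untreated samples (Control) and 2 samples exposed to hydrogen peroxide (H2O2), a membrane-permeable oxidant. The labels give no dose, exposure time or culture of origin, so p-values measure the spread between these samples, which may be technical, and all results concern this 1 line. What was deposited is each group's mean normalized count (reads divided by a size factor for each library). Whole reads of the 4 libraries were recovered from these means, and the libraries are called the deeper and the shallower of each group because the table carries no replicate numbers. They held 6858809 to 7365032 reads. Which deposited mean belongs to Control was read from the naming of the table, where Control comes first, and every direction below rests on that.

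Chaperonins are hollow double rings that enclose a protein chain and let it fold in a closed chamber, driven by ATP. The CCT ring, also called TRiC, is built from 8 related but distinct subunits and folds newly made actin and tubulin, handed over in part by prefoldin. HSP60 forms rings of a single kind of subunit in the mitochondrial matrix, with HSP10 as their lid, and folds proteins that the import machinery and mitochondrial HSP70 deliver. Heat shock factor 1 (HSF1) activates many chaperone genes under proteotoxic stress by binding heat shock elements, inverted repeats of the letters GAA and TTC.

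HSPD1 and HSPE1 lie head to head on chromosome 2, and RefSeq (GRCh38.p14) places their outer starts at 197500274 on the minus strand and 197500379 on the plus strand, 105 bases apart. A second HSPD1 start lies at 197499840. The promoter windows of 9 of the 10 genes, 12 windows in all, were searched over the 250 bases before each start. The search used a heat shock element of 2 units (GAANNTTC or TTCNNGAA), of 3 units (GAANNTTCNNGAA or TTCNNGAANNTTC) and of 4 units (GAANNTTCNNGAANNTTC or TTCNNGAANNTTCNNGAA), on both strands, so each longer element also counts as the shorter ones. The motifs were picked after the expression values were known, and no window for CCT6A was used. A match is a description of the letters and not a bound site. Stretches of 30 bases are shown for the 3 members with a match before a start and for CCT4, whose match lies just after its start, with the matched letters in capitals. The last line shows the GC box (GGGCGG, here as its complement) between the outer HSPD1 and HSPE1 starts.
HSPD1: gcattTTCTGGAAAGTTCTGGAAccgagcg
CCT4: gccgctTTCTGGAAGGTTCGTGAAggcagt
CCT2: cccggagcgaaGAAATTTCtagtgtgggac
TCP1: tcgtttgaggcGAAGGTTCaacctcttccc
HSPE1: gcgtcggggcgaCCGCCCtccctccctggg

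The HSPD1 stretch is chr2:197500061-197500090 on the minus strand. Its 4-unit match starts 245 bases before the inner RefSeq start of HSPD1. It lies 189 to 206 bases after the outer HSPD1 start and 294 to 311 bases before the RefSeq start of HSPE1. GENCODE begins HSPE1 at 197499994 and places the outer edge of HSPD1 at 197516737. By that annotation the match, at 197500068 to 197500085, lies inside both genes. Listed exons cover all 250 bases before each HSPD1 and HSPE1 start searched, and 72 to 223 bases in the windows of the other members. The HSPE1 stretch is chr2:197500265-197500294 on the plus strand. The CCT2 stretch is chr12:69585789-69585818 on the plus strand, before the downstream of 2 CCT2 starts, and the TCP1 stretch is chr6:159789815-159789844 on the minus strand. The CCT4 stretch, chr2:61888595-61888624 on the minus strand, was read from the promoter window of its opposite-strand neighbour COMMD1. It was looked up after that gene turned up among the 4-unit matches, and it lies 38 to 55 bases after the CCT4 start at 61888656. Of all 35116 RefSeq windows, 11.6% held 2 units, 0.441% held 3 and 0.0285% (10 windows) held 4. The GC box was in 42.6% of them and, among the chaperonin genes, in windows of CCT2, CCT3, CCT8, TCP1, HSPD1 and HSPE1. The other motifs searched were the CCAAT box (CCAAT, in 32% of all windows and in those of CCT2, CCT3, CCT8 and TCP1), the AP-1 site (TGANTCA, 6.57%, in no chaperonin window) and the antioxidant response element (TGACNNNGC, 10.9%, in those of CCT4).

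With H2O2, HSPD1 rose 1.34-fold, and it was the 1 chaperonin gene of 10 past an adjusted p under 0.05 in the authors' deposited table (adjusted p = 0.0211). Of all 16376 genes, the authors' deposited table called 7.19%, with 2.58% higher and 4.62% lower. Among the 7356 genes with a mean of at least that of HSPE1, the lowest member, 1.71% were called higher. None of the 8 CCT ring genes passed, with adjusted p-values from 0.143 for CCT4 to 0.992 for CCT8 in the authors' deposited table. At an unadjusted p under 0.05 that test gave 2 ring genes, CCT4 and CCT2, where 19.6% of all genes had such a p. Ring means were nevertheless mostly a little higher with H2O2: 7 of 8 log2 fold changes were above 0, with a median of 0.25 in the authors' deposited table, against 0.00029 for all genes. Both H2O2 libraries lay above both controls for 9 of the 10 genes, as for 26.3% of all genes and 2206 of the 7356 with at least the mean of HSPE1. A higher mean with H2O2 was found for 8191 of all 16376 genes and for 52.9% of those counted at least as high as HSPE1. limma, a linear model fitted to the recovered libraries, also called HSPD1 alone among the 10 (adjusted p = 0.0423), where it called 4.10% of all genes, 1.52% higher.

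**Figure D1:**
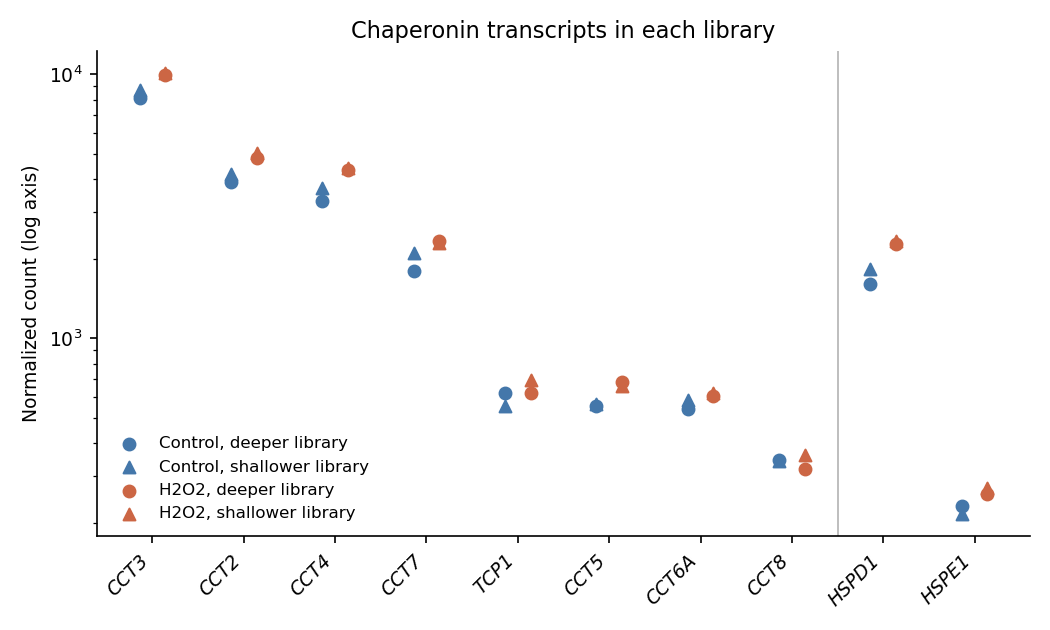
Normalized count (log axis) of each chaperonin gene in each of the 4 libraries, ring genes left of the grey line and the mitochondrial pair right of it. Both H2O2 libraries lie above both controls for 9 genes (26.3% of all genes), while the groups overlap for CCT8.

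HSPD1, the subunit of the mitochondrial folding chamber, had 1680 and 1783 reads in the deeper and shallower control and 2355 and 2241 with H2O2. Normalized counts were 1610 and 1830 in Control and 2273 and 2331 with H2O2, so the groups did not overlap, and the controls differed more from each other than the treated libraries did. The means were 1720 ± 156 (SD, n = 2) in Control and 2302 ± 40.8 (SD, n = 2) with H2O2. limma put the change at 0.42 ± 0.11 (SE) on the log2 scale, with a 95% interval from 1.14-fold to 1.58-fold. The difference between the controls, 0.18 on the log2 scale, was 3.77 times its counting error. HSPD1 did not pass in limma with total-count scaling (adjusted p = 0.0507), without the deeper H2O2 library (0.369) or without the shallower (0.357), while its log2 fold change stayed between 0.33 and 0.52 over all 4 fits with a library left out.

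HSPE1, the lid of that chamber, had 241 and 210 control reads and 266 and 261 reads with H2O2. In normalized counts this was 231 and 216 in Control against 257 and 271 with H2O2. The treated libraries were again above both controls, by a smaller margin than for HSPD1. The authors' deposited table lists it at 0.24 on the log2 scale, not past the threshold (adjusted p = 0.430), and limma's 95% interval reached from 0.967-fold to 1.45-fold. There were 6.97 and 8.49 HSPD1 reads for each HSPE1 read in Control and 8.85 and 8.59 with H2O2, lowest in the deeper control. The counting error of these ratios was not worked out. Between the controls the HSPE1 difference was 0.733 times its counting error. The interval of HSPE1 holds the fold change of HSPD1, and the difference between the partners was not tested. HSPE1 is also the less certain of the pair. Of its 75-base words (all runs of 75 bases in its transcript), 22.3% occur in other genes' transcripts, among them the readthrough gene HSPE1-MOB4 on the same strand, against 10.1% for HSPD1. GENCODE names 26 HSPE1 and 17 HSPD1 pseudogenes, and the 2 genes overlap in exons on opposite strands. The sources used here do not give how reads with several places, or the strand, were treated in counting.

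The ring held 4 genes with high counts and 4 with low ones. CCT3, the gamma subunit, had the highest count of the 10, rank 15 in the whole table, with normalized counts of 8126 and 8678 in Control and 9919 and 10112 with H2O2. CCT2, the beta subunit, had 3895 and 4181 in Control and 4832 and 5026 with H2O2. Both genes had treated libraries above both controls, and the authors' deposited table lists log2 fold changes of 0.25 and 0.29 that did not pass (adjusted p = 0.397 and 0.219).

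CCT4, the delta subunit, had the largest change of the ring, which the authors' deposited table puts at 0.32 on the log2 scale (adjusted p = 0.143). Its normalized counts were 3310 and 3700 in Control and 4339 and 4409 with H2O2. CCT7, the eta subunit, had 1799 and 2102 in Control and 2330 and 2295 with H2O2, so that its controls spanned almost as much as the step between the groups. Between the controls CCT7 differed by 0.22 on the log2 scale, next to 0.25 between the groups by the authors' deposited table (adjusted p = 0.264). In limma the 95% intervals were 1.06-fold to 1.47-fold for CCT4 and 1.01-fold to 1.40-fold for CCT7, neither past the threshold after adjustment over all genes (adjusted p = 0.120 and 0.228).

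The other 4 ring genes had 332 to 707 reads in each library. CCT5, the epsilon subunit, had normalized counts of 556 and 563 in Control and 682 and 658 with H2O2, a step much wider than the spread within either group. The authors' deposited table gives 0.26 on the log2 scale, short of the threshold (adjusted p = 0.267). TCP1, the alpha subunit for which the family is named, had 618 and 552 in Control and 621 and 697 with H2O2. The lower treated library thus stood next to the higher control, and the authors' deposited table gives 0.17 on the log2 scale (adjusted p = 0.540).

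CCT6A, the zeta subunit, had 540 and 585 in Control and 606 and 621 with H2O2, which the authors' deposited table puts at 0.13 on the log2 scale (adjusted p = 0.671). CCT8, the theta subunit, was the exception among the 10. Its normalized counts were 346 and 342 in Control and 320 and 361 with H2O2, so both controls lay inside the treated range. The authors' deposited table puts it at -0.014 on the log2 scale, and limma's 95% interval of 0.820-fold to 1.19-fold holds the limma estimates of CCT3, CCT7, TCP1, CCT6A and HSPE1.

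**Figure D2:**
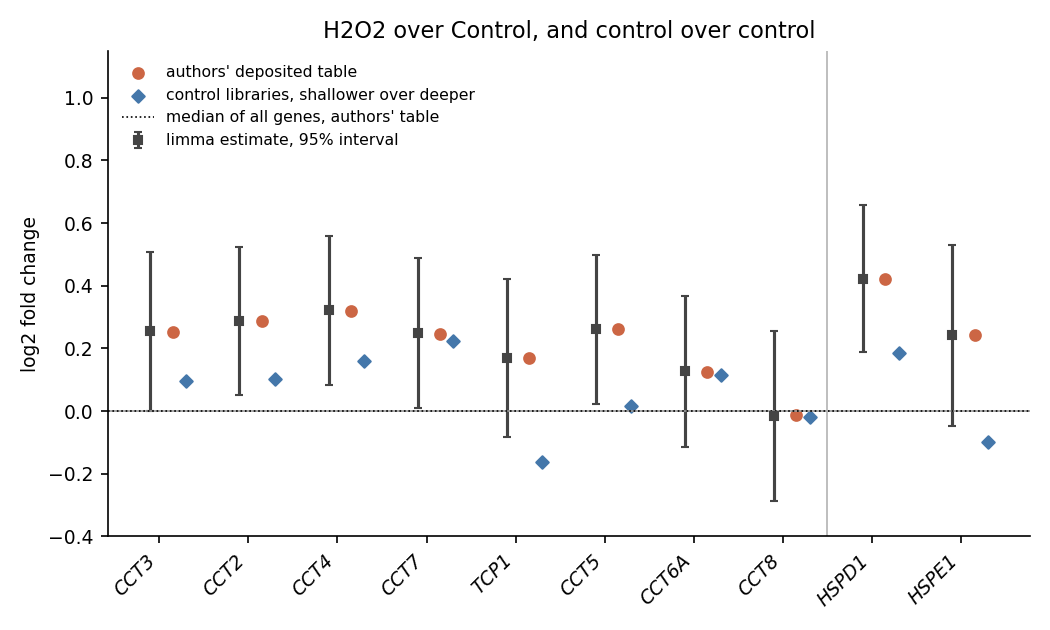
log2 fold change of each chaperonin gene with H2O2 over Control, as limma's estimate with its 95% interval and as the authors' value, beside the log2 difference between the 2 control libraries (shallower over deeper). HSPD1 has the highest estimate, 0.42, and for CCT7, CCT6A, TCP1 and CCT8 the control difference is about the size of the H2O2 difference.

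Because the subunits share 1 complex, the ring's make-up was also described as each gene's share of all ring reads in a library. CCT3 took 42.3% and 41.9% in Control and 41.9% and 41.8% with H2O2, and these ranges overlapped. CCT4 took 17.2% and 17.9% in Control and 18.3% and 18.2% with H2O2, higher in both treated libraries, and CCT2 went from 20.3% and 20.2% to 20.4% and 20.8%. CCT8 took 1.80% and 1.65% in Control and 1.36% and 1.49% with H2O2, lower in both treated libraries. CCT6A was lower too, with 2.81% and 2.83% against 2.56% and 2.57%. For CCT5, CCT7 and TCP1 the groups overlapped. No share moved by as much as 1 percentage point, the largest mean shift being 0.73 for CCT4. By normalized count, both H2O2 libraries lay above both controls for 26.3% of all genes and below for 25.6%. With 2 libraries against 2, an exact two-sided permutation test cannot give a p below 0.333. The shares of a library are also tied to each other, and their counting error was not worked out, so these shifts are a description.

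Set side by side, the summed normalized count of the ring was 19190 and 20703 in Control and 23651 and 24180 with H2O2, a ratio of means of 1.20. That of HSPD1 and HSPE1 was 1841 and 2046 in Control and 2530 and 2602 with H2O2, a ratio of 1.32. Without CCT3, which supplies the most reads, the ring's ratio was also 1.20. The mitochondrial pair made up 8.75% and 8.99% of the reads of the 10 genes in Control and 9.66% and 9.72% with H2O2. The exact 95% binomial intervals, which cover counting error only, were 8.38% to 9.14% and 8.62% to 9.38% in Control and 9.31% to 10.02% and 9.36% to 10.1% with H2O2. The intervals of the shallower control and both treated libraries overlapped slightly, while the 4 values themselves did not overlap between groups. With 2 libraries against 2, an exact two-sided permutation test cannot give a p below 0.333, which is the value for the ring sum, the pair sum and the pair's share. In bulk RNA, a change in the number of cells of a state and a change in RNA per cell cannot be told apart.

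**Figure D3:**
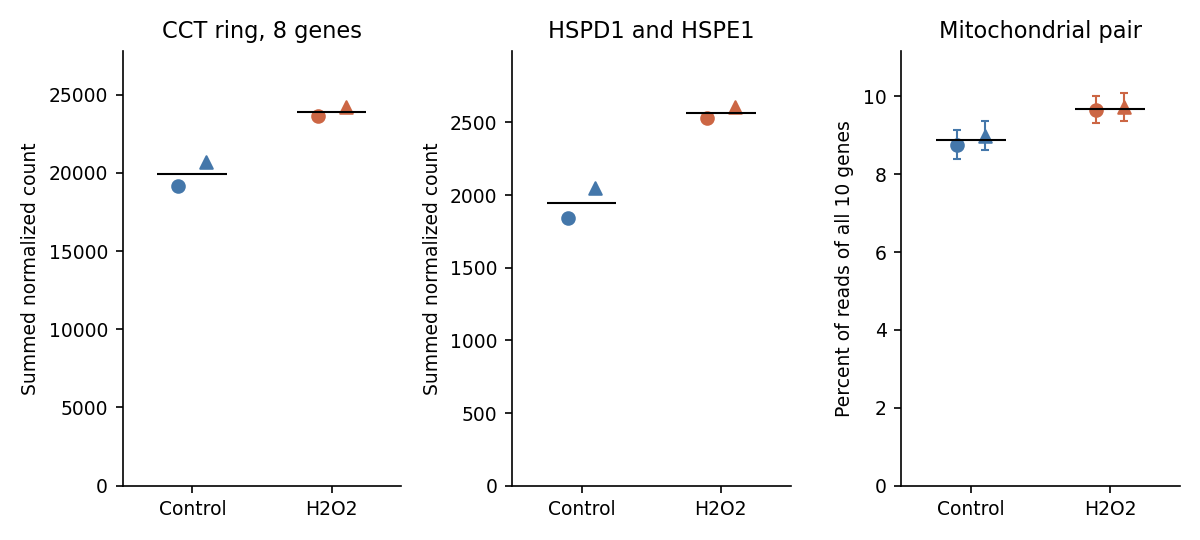
Summed normalized counts of the 8 ring genes and of HSPD1 with HSPE1, and the mitochondrial pair's percent of the reads of all 10 genes, by group (circles the deeper and triangles the shallower library, black lines the group means, bars in the third panel the exact 95% binomial intervals). The treated libraries lie above the controls in each panel, with ratios of means of 1.20 and 1.32 in the first and second.

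The calls turned on which libraries were used. Between the control libraries the median ring gene stood 0.098 log2 units higher in the shallower one, against 0.0094 for all genes. Without the deeper control, limma called HSPD1, CCT4 and CCT2 higher, where it called 8.52% of all genes, 3.71% higher. Without the shallower control it called these and CCT7 and CCT3, where it called 22.2% of all genes, 10.6% higher. In each such fit the lone library of a group is assumed to vary like the other group's. Without the deeper H2O2 library it called none of the 10 and 1.73% of all genes, 0.635% higher. Without the shallower H2O2 library it again called none of the 10, and 3.13% of all genes, 1.29% higher. Shares this small leave little to read from none of 10. With total-count scaling, where none of the 10 passed either, 4.09% of all genes were called, 1.40% higher. In a table simulated for the same comparison with 16376 genes, limma called 46% of 50 genes changed 1.5-fold. It called 20% of 50 given a smaller change, about that of HSPD1. The simulation gave every gene the same dispersion and drew the changed genes from a wide range of counts. These shares therefore do not give how often HSPD1 or another well-counted member would be called. A missed threshold does not show that a gene did not change.

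**Figure D4:**
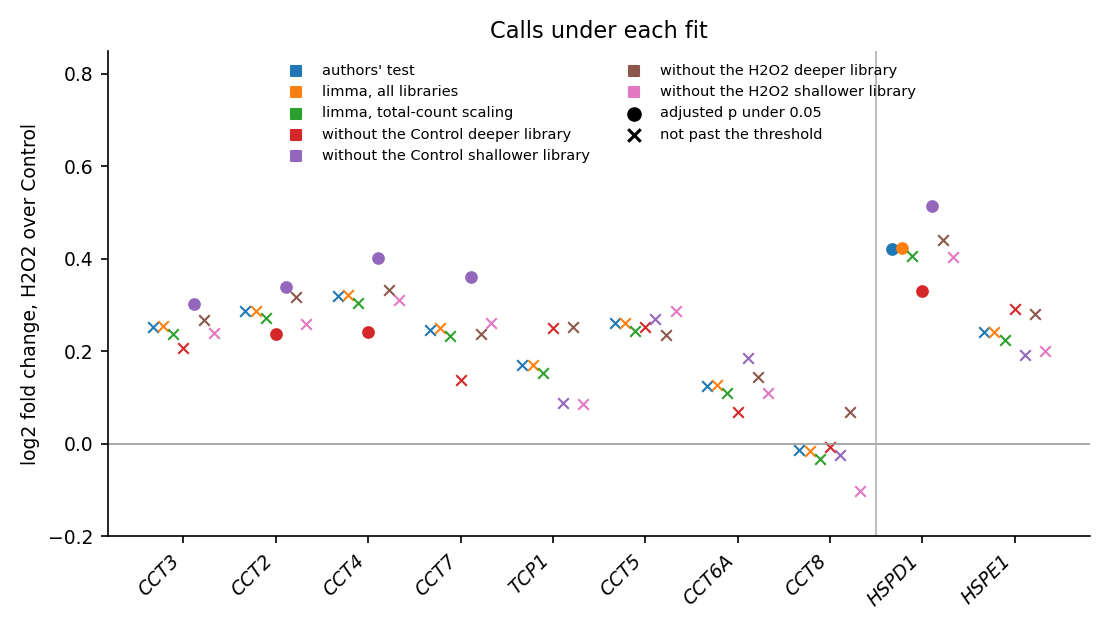
log2 fold change of each chaperonin gene in the authors' test, in limma with all libraries, with total-count scaling and with each library left out; circles passed an adjusted p under 0.05 and crosses did not. HSPD1 passed in 4 of the 7 fits drawn, CCT2 and CCT4 in 2 each, CCT3 and CCT7 in 1 each, and the other 5 genes in none.

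Levels were compared between genes per kilobase of the principal GENCODE 29 transcript. In Control, mean normalized counts per kilobase were 3908 for CCT3, 1979 for CCT2, 1391 for CCT4 and 1018 for CCT7, followed by HSPD1 at 701. HSPE1 (235), TCP1 (234), CCT6A (207), CCT8 (172) and CCT5 (152) came after a wide gap. Neighbours in this order had control ranges that did not overlap, except HSPE1 and TCP1. The highest ring level per kilobase was 25.7 times the lowest. The subunits are thought to be present once in each ring as proteins, which RNA levels do not measure. The 4 high genes, CCT3, CCT2, CCT4 and CCT7, had no 75-base word in common with another gene. The 4 low ones had some: 0.778% for CCT5, 1.29% for CCT8, 1.40% for CCT6A and 1.40% for TCP1, all of it in pseudogenes. GENCODE also names pseudogenes for CCT4 and CCT7, which shared no such word, and with 100-base words none of the 8 ring genes shared any, so the split holds for the shorter words only. Exons of other genes overlap 30.1% of CCT5, 12.6% of CCT4 and 11.1% of TCP1. The lowest of the first group, CCT7, was 4.35 times as high per kilobase as the highest of the second, TCP1. By the authors' deposited table, log2 fold changes had a median of 0.27 in the first group and 0.15 in the second. The part of shared sequence in these levels was not tested. It came to at most 1.40% of a ring gene's 75-base words, beside 10.1% for HSPD1 and 22.3% for HSPE1. With words of 50 bases it reached 8.59% in the ring, for CCT8. How reads with several places were counted is not given, so levels set between chaperonin genes are uncertain. With the length of all annotated exons in place of the principal transcript, CCT4 ranked above CCT2, CCT6A and TCP1 ranked above HSPE1, and the high and low groups kept their members.

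**Figure D5:**
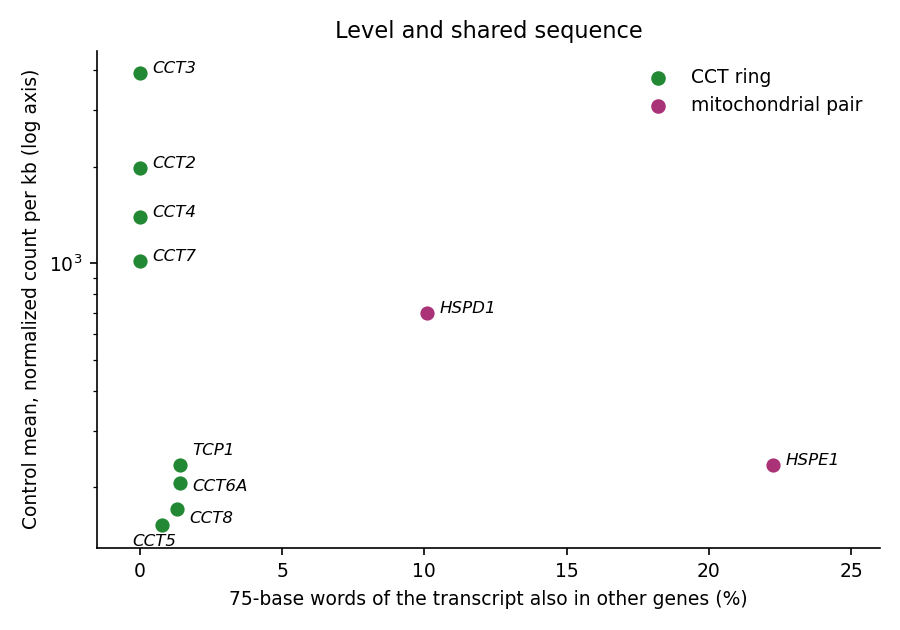
Control mean in normalized counts per kilobase (log axis) against the percent of each transcript's 75-base words that also occur in other genes' transcripts. The 4 ring genes at 0% lie between 1018 and 3908, and the other 4 between 152 and 234.

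Genes that work with the ring were read from lists of known partners. Prefoldin, the complex that hands actin and tubulin to CCT, had 6 of 6 subunit genes listed, none past the threshold and all with log2 fold changes above 0, with a median of 0.27 in the authors' deposited table. VBP1 was highest among the well-counted ones at 0.37 (adjusted p = 0.0673), with reads going from 764 and 746 in Control to 955 and 971. PFDN2 and PFDN6 stood at 0.28 and 0.25, PFDN1 and PFDN5 at 0.054 and 0.055, and the low-count PFDN4 at 0.65 in the authors' deposited table. The phosducin-like cofactors, which bind CCT and modulate its work, did not pass either: the authors' deposited table lists PDCL at 0.18, PDCL3 at 0.46 and TXNDC9 at 0.17 on the log2 scale. The testis-enriched paralog CCT6B was counted at 17 and 5 reads in Control and 18 and 13 with H2O2. The chaperonin-like Bardet-Biedl genes MKKS, BBS10 and BBS12, which help assemble the BBSome, did not pass, and the authors' deposited table lists them at 0.19, 0.29 and 0.22 on the log2 scale.

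Of 12 listed actin and tubulin genes, the main clients of the ring, none passed, where 7.19% of all genes did. By the authors' deposited table the median of the 12 was 0.13 on the log2 scale. ACTB had 4731 and 6583 reads in Control and 7146 and 7086 after H2O2, which the authors' deposited table puts at 0.34 (adjusted p = 0.150) beside a wide gap between the controls. TUBB3 stood lowest of the 12, at -0.43 (adjusted p = 0.0931). None of 10 other clients, among them the G protein subunit gene GNB2 (0.21) and FZR1 (-0.18), an activator of the anaphase-promoting complex, and none of 6 tubulin cofactor genes passed in the authors' deposited table. Their medians were 0.073 and 0.11.

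On the mitochondrial side, the HSP70 system that receives imported chains had 1 of 7 genes past the threshold, where 7.19% of all genes passed. HSCB, a J-domain partner in iron-sulfur cluster assembly, rose 1.55-fold in the authors' deposited table, from 132 and 136 to 227 and 185 reads. HSPA9, the mitochondrial HSP70 itself, stood at a log2 fold change of 0.12, its nucleotide exchange factor GRPEL1 at 0.20 and the HSP90 homolog TRAP1 at 0.16 in the authors' deposited table, none past the threshold. None of 12 mitochondrial protease genes passed, with OMA1 at 0.42, CLPP at 0.28 and SPG7 at -0.33 in the authors' deposited table. Of 13 listed import genes, 2 fell and none rose, where 4.62% of all genes were called lower and 2.58% higher. PAM16, a subunit of the import motor, fell to 0.344 of its control level, and TOMM40, the outer membrane channel, to 0.556, by the authors' deposited table. Both were thinly counted, with 92 and 69 control reads for PAM16 and 76 and 83 for TOMM40, and PAM16 shares exons with the readthrough gene CORO7-PAM16.

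Of all genes, the authors' deposited table called 2.58% higher and 4.62% lower. Among 13 cytosolic heat shock genes, 10 rose and none fell by that table, and their median was 0.62 on the log2 scale. Their results were known when the chaperonins were picked. The ring's median of 0.25 and HSPD1's 0.42 lay below that median. By the authors' deposited table HSPA8 stood at 0.62 and HSPH1 at 0.92. The HSP90 genes HSP90AA1 and HSP90AB1, added after their values were seen, stood at 0.36 and 0.33 there, not past the threshold. HSF1 and HSF2 did not pass, at -0.024 and -0.058. Of the factors tied to mitochondrial stress, DDIT3 (CHOP) rose 2.31-fold, while ATF5 (0.16), ATF4 (-0.28) and CEBPB (0.24) did not pass, by the authors' deposited table.

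Profiles over the 4 libraries, as log2(normalized count + 1) centred on each gene's mean, were compared by distance among genes with a mean of at least 50. Among the 5 genes nearest to the mean profile of the ring were SKA1, Z83844.1, CDK2 and NSMCE4A, and nearest to that of the mitochondrial pair were PTS, C1orf109, PERP, GPN3 and MIR302B. Seen from HSPD1, CCT4 was the closest member at rank 89 of 12117 genes and CCT2 the next at 258, followed by CCT7 at 507, CCT3 at 508 and CCT5 at 832. Its partner HSPE1 came after these at 1740, CCT6A at 2241, TCP1 at 3495 and CCT8 at 5669. Counting error also enters these distances, and its part was not tested. Between the controls it was 0.14 log2 units for HSPE1 and 0.11 for CCT8, against 0.034 for CCT4 and 0.032 for CCT2. With 4 libraries many genes lie close together, and these ranks are a description.

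The libraries carried the epithelial transcripts of a colon line, with EPCAM, KRT8, KRT18, KRT19, CDH1 and VIL1 all counted in each, KRT20 at 6 to 14 reads and CDX1 not listed. Of 6 fibroblast markers 3 were listed, COL1A1 among them with 526 to 780 reads. COL1A1 was lower with H2O2, which the authors' deposited table puts at 0.734 of the control level (adjusted p = 0.0211). That table lists COL3A1 at 0.095 and PDGFRB at -0.39 on the log2 scale, neither past the threshold (adjusted p = 0.842 and 0.679). The summed normalized count of the fibroblast list was 933 to 1017 in Control and 754 to 813 with H2O2. Most of it was COL1A1, with 748 and 759 in Control and 559 and 547 with H2O2. Of 5 leukocyte markers CD14 alone was listed, with 3 to 19 reads (3.65-fold higher with H2O2 in the authors' deposited table, adjusted p = 0.0270, limma 0.0794), and of 3 endothelial markers none. The part of these markers in the chaperonin values was not tested.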

How the data were processed

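The deposited table gives, per the file headers, the authors' means of normalized counts (a signal: counts divided by size factors) over all libraries and for each group. It also holds the fold ratio of the group means, its log2, and p-values from the authors' DESeq test with their Benjamini-Hochberg adjustment. Per the submitters' processing notes, STAR, HTSeq and DESeq were used with hg19, beside CASAVA 1.8, Trim Galore and FastQC; roles and order are not stated. The sources used here do not give the annotation, strand setting or multi-read handling. Whole counts of both libraries were found from each group's mean (tolerance 1e-09), and 100% of 16376 genes had exactly 1 solution in both groups. In a simulated table of 16376 genes 100% were recovered in each group. The table's own test was the main result at an adjusted p under 0.05. The alternative was limma 3.58.1 in R 4.3.3 on log2(normalized count + 1), its prior variance following the mean, and its fold changes are on that scale. Further alternatives changed the scaling (total count), pseudocount (0.5) and low-value filter (mean of at least 50), or left out each library. The genes named are the 10 members, all prefoldin, cofactor and chaperonin-like genes, up to 5 of each other list by adjusted p (mean of at least 50), the nearest profiles and the markers; 1 gene that the rule names is not reported here. HSP90AA1, HSP90AB1, HSF1, the genes of the motif search and the exon overlaps were added after their values were seen. Members and lists were chosen with earlier results of these data known. Lengths and shared words came from GENCODE 29 (GRCh38), another build than the table's, and promoter windows from RefSeq.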

Additional observations from a re-analysis of the deposited data

How the results depend on the processing

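No paired analysis was possible because the table gives group means and the recovered libraries carry no replicate numbers. A fit of the recovered counts with edgeR was planned on a condition that the deposited means did not meet, and it was not run. limma called 671 genes in all against 1178 in the authors' deposited table, 669 with total-count scaling, 663 with a pseudocount of 0.5 and 460 among genes with a mean of at least 50. With a library left out it called 284 to 3641. Of the 10 chaperonin genes, limma called 0 with total-count scaling and 0 to 5 with a library left out. At an unadjusted p under 0.05 limma had 20.2% of all genes. The log2 fold change of CCT8 turned to 0.069 without the deeper H2O2 library and ranged from -0.10 to 0.069 over the fits with a library left out. The ring's median stayed between 0.22 and 0.29 and that of HSPD1 and HSPE1 between 0.30 and 0.36 over the fits with a library left out. The cause of these shifts was not tested. Depth limits HSPE1 and CCT8 most, with 210 to 361 reads a library.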

Other observations

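Listed genes whose promoter windows hold a heat shock element of 3 units or more numbered 53. Of these 5 were higher (9.43%) and 3 lower (5.66%) in the authors' deposited table, against 2.31% and 4.68% of the 10323 listed genes with any window. The higher ones were HSPA8, SERPINH1, CHORDC1, HSPD1 and the thinly counted FBXW10, and the lower ones HYPK, MGA and PHF8. Their median log2 fold change was 0.085. Elements of 4 units stood before a start of 3 listed genes: CHORDC1, an HSP90 cofactor, HSPD1 and COMMD1. Their log2 fold changes were 0.56, 0.42 and 0.053 in the authors' deposited table, of which that of COMMD1 did not pass. For HSPD1 this is the inner start only, and the element lies 189 to 206 bases after the outer one. The COMMD1 stretch lies just after the start of CCT4, which stood at 0.32 and did not pass (adjusted p = 0.143 in the authors' deposited table). The search covered only bases before starts, so the other members were not looked at in this way. The HSPD1 element lies 294 to 311 bases before the RefSeq start of HSPE1, outside the HSPE1 window. By GENCODE, which begins HSPE1 at 197499994, the element lies inside that gene. HSPE1 stood at 0.24 and did not pass either (adjusted p = 0.430 in the authors' deposited table). These genes were picked out after their values were seen, and the counts are a description with no test.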
